A study of Mus musculus with 16 samples.

Results

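The 4 Notch receptor genes (Notch1, Notch2, Notch3, Notch4) and 5 canonical Notch ligand genes (Dll1, Dll3, Dll4, Jag1, Jag2) were followed through the differentiation of mouse embryonic stem cells with and without knockdown of Beclin1. They were chosen by symbol, as the 9 rows of these names among the 54052 entries of the count table. Earlier results of these data were known at that time. All 9 passed the filter on low counts, which left 19141 genes to test. Dll4 passed it through the day 10 libraries, as it had 0 to 5 counts per library before.

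The cells were ES-E14TG2a, a mouse embryonic stem cell line, with either the Beclin1 hairpin (shBeclin1) or the one labelled shNT, taken here as the control. RNA was sequenced on day 0 (labelled as embryonic stem cells), on day 4 (embryoid bodies) and on day 10 in a culture labelled CM and in one labelled CM without GF, giving 16 libraries in 8 groups of 2. The study asked about Wnt and BMP signalling behind the cardiac differentiation of Beclin1-depleted cells. GF is not spelled out in the labels, which also do not say whether the libraries of a group came from separate cultures, so that p-values measure the spread between these libraries, which may be technical. The batch tag repeats the group, and a batch effect cannot be told apart from a group effect. With no rescue group, Becn1 loss and off-target effects of its hairpin cannot be told apart.

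Notch receptors are single-pass membrane proteins that are cut when a ligand on a neighbouring cell binds them, and the freed intracellular part joins the DNA-binding protein Rbpj to switch on genes such as those of the Hes and Hey families. Dll1, Dll4, Jag1 and Jag2 activate receptors on neighbouring cells, while Dll3 is known as a ligand that acts inside the producing cell and does not activate receptors on others. In the embryo the pathway is used in somite formation from presomitic mesoderm, in arterial endothelium, in cardiac cushion and trabecula formation and in holding back neuronal differentiation.

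Levels are given as counts scaled to library size with TMM factors (CPM), and levels of different genes are compared only as CPM per kilobase of merged exon (RPKM). A gene rose or fell where edgeR's quasi-likelihood test gave a Benjamini-Hochberg adjusted p under 0.05 over all 19141 genes, and every adjusted p below is from that test. A log2 fold is followed by its standard error (SE).

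Dll1, Dll4 and Jag1 each had the highest RPKM of the ligands in 1 or more groups, Dll4 only with merged exons as the length, and Jag2 led in shNT at day 0 (40.6% of ligand RPKM). Bases upstream of the start sites of the first 3 are shown to place these genes in the genome (RefSeq, build GRCm38.p6, each 5′ to 3′ on the strand of the gene, all minus except Dll4, with CpG dinucleotides in capitals). The pieces are chr17:15376933-15377182 for Dll1, chr2:119325534-119325783 for Dll4 and chr2:137116645-137116770 for Jag1, and each lies outside the span of its gene in GENCODE vM21, the annotation behind all gene positions and lengths given here. The Jag1 piece does not reach the RefSeq start, as the 124 bases between them lie in an exon in GENCODE. The Dll1 piece lies before a RefSeq start whose first 50 bases are in no GENCODE transcript of Dll1. The other RefSeq start of Dll1, whose first 50 bases are in such a transcript, gave no piece, as the bases before it lie within the gene.
Dll1: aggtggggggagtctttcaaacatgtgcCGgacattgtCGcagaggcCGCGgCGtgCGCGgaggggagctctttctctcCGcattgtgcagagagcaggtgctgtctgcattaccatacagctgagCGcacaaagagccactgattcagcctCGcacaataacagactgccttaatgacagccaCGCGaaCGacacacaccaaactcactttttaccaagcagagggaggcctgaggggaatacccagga
Dll4: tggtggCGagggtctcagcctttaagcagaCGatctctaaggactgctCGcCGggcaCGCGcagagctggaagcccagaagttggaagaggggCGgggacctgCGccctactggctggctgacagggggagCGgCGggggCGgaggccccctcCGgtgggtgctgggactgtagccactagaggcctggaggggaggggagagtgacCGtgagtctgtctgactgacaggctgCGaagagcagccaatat
Jag1: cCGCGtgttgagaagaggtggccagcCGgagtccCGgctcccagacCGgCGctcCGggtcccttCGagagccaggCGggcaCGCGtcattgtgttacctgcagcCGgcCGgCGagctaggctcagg
The Dll1 piece has 13 CpG in 250 bases and lies in an exon of the long non-coding gene A930024N18Rik on the opposite strand. The Dll4 piece has 14 CpG in 250 bases, and the Jag1 piece has 14 in 126. All 9 members matched RefSeq promoters of 300 bases (250 before and 50 after the start), Dll1 with a pair of entries. Both strands of these windows were searched for 4 motifs, and none was found in any of them. The RBPJ motif GTGGGAA occurs in 6.4% of the 32851 promoters of the table. The T-box motif GGTGTGA occurs in 4.0% of them and the TCF/LEF motif CTTTGAT in 3.7%. The GATA motif AGATAA occurs in 11.2%. None of the 4 motifs contains another. Each is an exact run of bases that most promoters lack. Finding none in these few windows thus does not show that the genes lack such sites.

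Becn1 CPM was 89.3 and 85.2 in the shNT libraries at day 0 against 36.2 and 40.0 in shBeclin1. It was 73.0 and 72.2 against 33.7 and 38.4 at day 4, 59.7 and 58.2 against 36.9 and 36.3 in CM, and 63.5 and 60.9 against 42.7 and 45.2 without GF. The targeted gene was thus lower in every shBeclin1 library, with log2 folds from -1.20 (SE 0.08) at day 0 to -0.50 (SE 0.07) without GF. Becn1 shares 43.9% of its exon length with Cntd1 on the opposite strand, and no strand setting of the counting is stated. Library totals ran from 14967744 to 21422980 counts. The 10 cardiomyocyte markers summed to 60.1 and 67.2 CPM in the shNT libraries labelled CM against 4993 and 5406 CPM in shBeclin1, so that the CM label of the shNT cells is not matched by those markers. The tissue tag of the samples says heart, though they are a cell line. In 2 groups the replicates differed far more than elsewhere (chi-square per degree of freedom 8.77 for shNT at day 0 and 8.41 for shBeclin1 without GF, against 1.45 to 3.17), and in the latter the cardiomyocyte sum was 3649 and 6783 CPM.

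Dll1 (chr17:15367354-15376872, minus strand), the Delta ligand of presomitic and neural cells, had the largest knockdown differences of the 9 genes at day 4 and without GF, and these had opposite signs. Its CPM at day 0 was 5.82 and 5.59 in shNT and 3.12 and 3.85 in shBeclin1. At day 4 it was 24.5 and 25.2 in shNT and 111 and 106 in shBeclin1. In CM it was 7.40 and 7.87 in shNT and 1.22 and 1.58 in shBeclin1, and without GF it was 22.5 and 24.7 in shNT and 0.456 and 0.960 in shBeclin1. No shNT and shBeclin1 libraries overlapped at any point. Dll1 was 4.36-fold higher in shBeclin1 at day 4 (log2 fold 2.13, SE 0.10, adjusted p = 3.16e-19). It was 5.38-fold lower in CM (-2.43, SE 0.20, adjusted p = 6.99e-13) and 32.4-fold lower without GF (-5.02, SE 0.18, adjusted p = 2.33e-23). The last value was -4.61 without shBeclin1 replicate 1 and -5.67 without replicate 2 of that group. These day 10 levels of shBeclin1 rest on few reads, 19 and 27 Dll1 counts in the CM libraries and 8 and 19 without GF. At day 0 Dll1 fell by 0.71 on the log2 scale (SE 0.18, adjusted p = 0.00672), a call that was lost without shBeclin1 replicate 1 of day 0 (-0.56, adjusted p = 0.127) and when only the 4 libraries of that day were fitted (-0.69, adjusted p = 0.0538).

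Over time Dll1 rose from day 0 to day 4 by a log2 fold of 2.12 (SE 0.13) in shNT and by 4.96 (SE 0.13) in shBeclin1. Between day 4 and CM the log2 fold was -1.71 (SE 0.12) in shNT and -6.26 (SE 0.15) in shBeclin1, a 76.5-fold drop in the knockdown cells. Without GF the shNT level stayed close to day 4 (log2 fold -0.07, SE 0.11, adjusted p = 0.552), while in shBeclin1 it fell 149-fold (-7.22, SE 0.16, adjusted p = 7.16e-31), or by log2 folds of -6.81 and -7.87 without shBeclin1 replicate 1 or 2 of that culture. The order of the group means ran from shBeclin1 day 4 over shNT day 4, shNT without GF, shNT CM, shNT day 0, shBeclin1 day 0 and shBeclin1 CM to shBeclin1 without GF. Of these neighbours, shNT day 4 and shNT without GF overlapped. Dll1 shares 20.5% of its exon length with A930024N18Rik on the opposite strand, and no strand setting of the counting is stated, so that reads of the pair may not be told apart. A930024N18Rik has no entry of that name in the count table, so its level could not be looked at.

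Dll3 (chr7:28293553-28302238, minus strand), the divergent Delta ligand of presomitic mesoderm and neural precursors, moved with Dll1. Its CPM was 1.53 and 1.26 in shNT and 2.08 and 1.15 in shBeclin1 at day 0, and 16.3 and 16.9 against 60.8 and 55.3 at day 4. It was 3.72 and 3.90 against 0.708 and 0.468 in CM, and 9.31 and 8.42 against 0.228 and 0.404 without GF. The hairpin groups overlapped at day 0 only. Dll3 was 3.49-fold higher in shBeclin1 at day 4 (log2 fold 1.80, SE 0.12, adjusted p = 2.06e-14), 6.46-fold lower in CM (-2.69, SE 0.29, adjusted p = 1.15e-09) and 27.0-fold lower without GF (-4.75, SE 0.28, adjusted p = 2.70e-17). From day 0 to day 4 it rose 11.9-fold in shNT and 35.7-fold in shBeclin1. After day 4 it fell 4.36-fold to shNT CM and 1.87-fold to shNT without GF, against 98.3-fold and 177-fold in shBeclin1. The lowest day 10 levels rest on few reads: shBeclin1 CM and shBeclin1 without GF libraries held 4 to 11 Dll3 counts each.

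**Figure D1:**
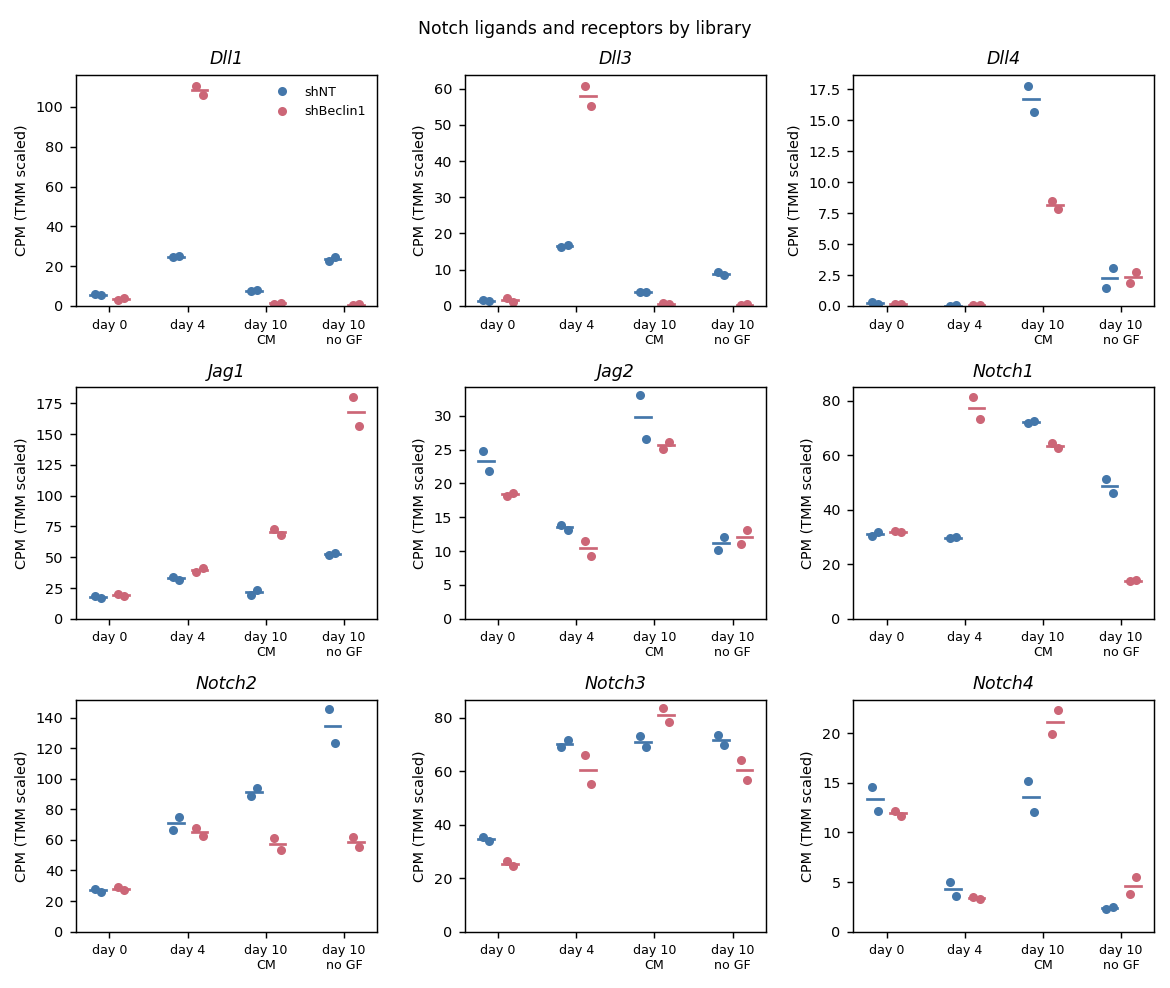
CPM of each of the 9 genes (y axis, linear from 0, each panel with its own scale) in every library by day and culture (x axis); points are libraries, short lines the mean of 2, blue shNT and red shBeclin1. Dll1 and Dll3 peak in shBeclin1 at day 4 and are near 0 there at day 10, Jag1 is highest in shBeclin1 without GF, and Dll4 is near 0 until day 10.

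Across the 16 libraries the log2 CPM of Dll1 and Dll3 had a Pearson r of 0.979, and Dll1 was the gene closest to Dll3 among 10792 tested genes (those averaging a log2 CPM of 2 or more). Since the points are 8 groups of 2 that share their group, this describes the groups rather than independent samples. The RPKM ratio of Dll1 to Dll3 lay between 1.01 and 3.01 in all 16 libraries, although both genes moved over 100-fold between groups (153-fold for Dll1 and 184-fold for Dll3 between highest and lowest mean CPM). Markers of the cells known for both genes moved with them at some points and not at others. The 8 presomitic and somite markers summed to 9.02 and 9.90 CPM in shNT at day 4 against 40.9 and 45.0 CPM in shBeclin1. Of the 7 tested, 3 rose, Mesp2, Tbx6 and Msgn1 (10.7% of all genes rose). Ripply2 and Uncx were at 0 in both shNT libraries and Uncx in both shBeclin1 libraries. The 8 streak and early mesoderm markers summed to 1000 and 1013 CPM against 2357 and 2361 CPM at day 4. Of the 8, 7 rose (10.7% of all genes rose). Their sum was lower in shBeclin1 at day 10, as Dll1 and Dll3 were. It was 261 and 263 CPM in shNT against 7.61 and 9.72 CPM in shBeclin1 in CM. In the culture without GF it was 34.4 and 36.6 against 1.14 and 1.72 CPM. Without GF the 8 neural markers summed to 429 and 440 CPM in shNT against 107 and 111 CPM in shBeclin1. Of the 8, 7 fell and Pax6 rose (27.3% of all genes in each direction). None was at 0 in both libraries of either group. In the same culture the presomitic sum was higher in shBeclin1, 6.67 and 8.72 against 2.98 and 4.87 CPM, while Dll1 and Dll3 were lower. In CM the presomitic sum was 16.5 and 19.0 CPM in shNT against 13.5 and 16.5 CPM in shBeclin1. The neural sum was 109 and 110 against 97.3 and 100.2 CPM, though 6 of the 8 neural markers fell (19.1% of all genes). The part of these cells in the Dll1 and Dll3 values was not tested, and in bulk RNA fewer cells of a type and less RNA per cell cannot be told apart.

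Jag1 (chr2:137081456-137116644, minus strand), the Serrate-type ligand of smooth muscle, endocardium and many progenitors, had hairpin differences opposite in sign to those of Dll1 at day 10. Its CPM was 18.1 and 16.8 in shNT and 20.05 and 18.2 in shBeclin1 at day 0, and 34.1 and 31.9 against 37.7 and 41.1 at day 4. It was 19.7 and 23.2 against 73.2 and 68.4 in CM, and 51.4 and 53.4 against 180 and 156 without GF. Jag1 was 3.31-fold higher in shBeclin1 CM (log2 fold 1.73, SE 0.09, adjusted p = 9.93e-19) and 3.20-fold higher in shBeclin1 without GF (1.68, SE 0.08, adjusted p = 3.43e-20). Without either shBeclin1 replicate of that group the last value was 1.58 and 1.78. At day 0 it did not pass the test (0.13, SE 0.11, adjusted p = 0.480). At day 4 Jag1 rose by 0.26 (SE 0.09, adjusted p = 0.0369), a call lost without shBeclin1 replicate 2 (adjusted p = 0.310), shNT replicate 1 (0.0764) or shNT replicate 2 (0.271) of day 4, with DESeq2 (0.101) and with scaling to total counts (0.109). Between day 4 and CM, Jag1 fell by 0.63 in shNT (SE 0.10) and rose by 0.84 in shBeclin1 (SE 0.08). In both hairpins it was higher without GF than in CM, by log2 folds of 1.30 (SE 0.09) in shNT and 1.25 (SE 0.08) in shBeclin1. The 8 smooth muscle and pericyte markers, another cell type known for Jag1, summed to 382 and 402 CPM in shNT CM against 2395 and 2519 CPM in shBeclin1 CM, and to 294 and 319 CPM against 1950 and 2273 CPM without GF. Of the 8, 6 rose (19.2% of all genes rose) and Mcam fell (19.1%) in CM, and all rose without GF (27.3%). None was at 0, and the part of these cells in the Jag1 value was not tested.

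**Figure D2:**
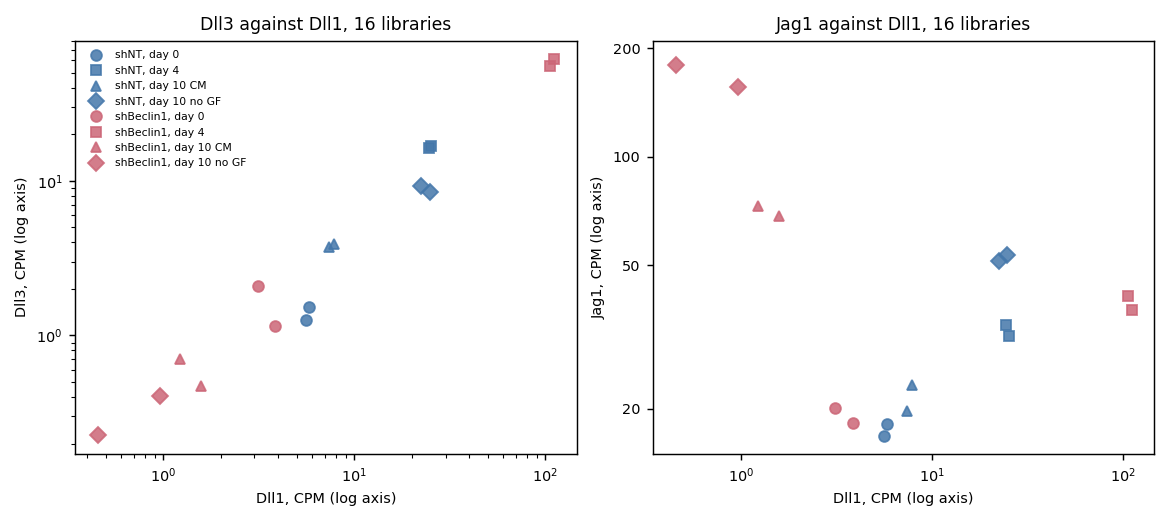
CPM of Dll3 (left) and Jag1 (right) against Dll1 CPM in the 16 libraries, on log axes; colour marks the hairpin and shape the day and culture. Dll3 follows Dll1 over the whole range, while the shBeclin1 day 10 libraries combine the highest Jag1 with the lowest Dll1.

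Jag2 (chr12:112907819-112929776, minus strand), the other Serrate-type ligand, differed little by hairpin. Its mean CPM was 23.3 ± 2.09 (SD, n = 2) in shNT and 18.4 ± 0.355 in shBeclin1 at day 0, and 13.5 ± 0.529 against 10.4 ± 1.64 at day 4. It was 29.8 ± 4.56 against 25.6 ± 0.745 in CM and 11.2 ± 1.39 against 12.1 ± 1.44 without GF. Only day 4 passed the test (log2 fold -0.38, SE 0.14, adjusted p = 0.0498). That call was lost in 9 of 16 fits that left out 1 library, with an adjusted p of up to 0.472 without shBeclin1 replicate 2 of day 4. It was also lost with DESeq2 (0.112) and with the replicate number as a block (0.0503). At day 0 the adjusted p was 0.0597, and the difference passed without shNT replicate 2 of day 0 (-0.43, adjusted p = 0.0263), without either shBeclin1 library without GF (0.0373 and 0.0374) and with scaling to total counts (0.0286). In CM it was 0.120, and the difference passed without shNT replicate 2 of CM (-0.37, adjusted p = 0.0266), in a fit of the 4 CM libraries (0.0350) and with scaling to total counts (0.0270). Culture moved Jag2 more: it was higher in CM than without GF by log2 folds of 1.42 (SE 0.12) in shNT and 1.08 (SE 0.12) in shBeclin1.

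Dll4 (chr2:119325784-119335962, plus strand), the Delta ligand of arterial and sprouting endothelium, was almost absent until day 10. Over both libraries of a group it had 7 counts in shNT and 4 in shBeclin1 at day 0, and 1 and 3 counts at day 4. In CM its CPM was 17.8 and 15.7 in shNT and 8.50 and 7.84 in shBeclin1, and without GF it was 1.49 and 3.09 against 1.88 and 2.78. The hairpin groups did not overlap in CM and did without GF. Dll4 was 2.06-fold lower in shBeclin1 CM (log2 fold -1.04, SE 0.19, adjusted p = 2.26e-05). Without GF the log2 fold was 0.02 (SE 0.28, adjusted p = 0.961), and the 95% counting interval of the ratio of shBeclin1 to shNT was 0.739 to 1.39. Between day 4 and CM the ratio of Dll4 CPM was 494 in shNT (95% exact counting interval 88.4 to 19547) and 89.8 in shBeclin1 (30.4 to 438), intervals that cover counting error only. The shNT ratio rests on 1 count at day 4. In shNT it was 7.28 times as high in CM as without GF (5.75 to 9.33), and in shBeclin1 3.46 times (2.71 to 4.45). The fitted log2 fold for shNT was 2.86, or 2.44 and 3.50 without shNT replicate 1 or 2 of the culture without GF. The 10 endothelial markers summed to 1082 and 1096 CPM in shNT CM and 1091 and 1175 CPM in shBeclin1 CM, with none at 0. Of the 10, 4 were lower in shBeclin1 (19.1% of all genes), as Dll4 was, and 2 were higher (19.2%). The 6 arterial markers summed to 290 and 305 CPM against 691 and 732 CPM, with 4 higher and 2 lower (19.2% and 19.1% of all genes). These sums are not specific to endothelial cells. The endothelial sum was 279 and 294 CPM in shNT at day 0, with its markers Cdh5 and Emcn at 0. The arterial sum was 193 and 202 CPM in shNT at day 4, with its marker Gja4 at 0. Without GF the endothelial sum was 87.7 and 92.6 CPM in shNT against 346 and 447 CPM in shBeclin1. All 10 rose there (27.3% of all genes rose). The part of endothelial cells in the Dll4 value was not tested. The gene shares 5.6% of its exon length with Gm14207 on the opposite strand, which had 0 to 39 counts per library.

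Of the receptors, Notch1 (chr2:26457903-26516663, minus strand) had the largest hairpin folds at day 4 and without GF, but not at day 0 or in CM. Its CPM was 30.5 and 31.9 in shNT and 32.2 and 31.8 in shBeclin1 at day 0, and 29.5 and 29.9 against 81.6 and 73.3 at day 4. It was 71.8 and 72.6 against 64.5 and 62.7 in CM, and 51.4 and 46.2 against 13.8 and 14.2 without GF. Hairpin groups overlapped at day 0 and were apart at the other points. Notch1 was 2.60-fold higher in shBeclin1 at day 4 (log2 fold 1.38, SE 0.08, adjusted p = 2.48e-16) and 3.49-fold lower without GF (-1.80, SE 0.09, adjusted p = 1.24e-19), or -1.79 and -1.82 without either shBeclin1 replicate. In CM it fell by 0.18 (SE 0.07, adjusted p = 0.0459), a call lost in 9 of 16 fits without 1 library, with an adjusted p of up to 0.198 without shBeclin1 replicate 2 of CM. DESeq2 (0.161), its size factors (0.0536) and the replicate block (0.0752) also ended it. From day 0 to day 4 Notch1 rose in shBeclin1 (1.27, SE 0.08) and did not pass in shNT (-0.07, SE 0.09, adjusted p = 0.497). On the way from day 4 to CM it rose by 1.28 (SE 0.08) in shNT and fell by 0.28 (SE 0.07, adjusted p = 0.000842) in shBeclin1, the latter not passing with scaling to total counts (adjusted p = 0.144). Without GF in shBeclin1 it stood 5.53-fold below day 4 (-2.47, SE 0.09).

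Notch2 (chr3:98013527-98150361, plus strand), a receptor of smooth muscle and liver among other tissues, did not pass the hairpin test at day 0 or day 4 and was lower in shBeclin1 afterwards. Its CPM was 27.9 and 25.9 in shNT and 29.0 and 26.9 in shBeclin1 at day 0, and 66.5 and 75.2 against 67.7 and 62.4 at day 4, with overlapping groups both times. The day 4 difference passed in a fit of the 4 libraries of that day (-0.16, adjusted p = 0.0261). In CM it was 88.6 and 93.8 against 61.3 and 53.4, and without GF 145 and 123 against 61.7 and 55.4. Notch2 fell in shBeclin1 by 0.67 in CM (SE 0.08, adjusted p = 3.75e-08) and by 1.20 without GF (SE 0.08, adjusted p = 1.27e-14, or -1.28 and -1.12 without either shBeclin1 replicate). It rose from day 0 to day 4 in both hairpins, by log2 folds of 1.40 (SE 0.09) in shNT and 1.22 (SE 0.09) in shBeclin1. In shNT it rose further, by 0.36 (SE 0.08) to CM and 0.92 (SE 0.08) without GF. In shBeclin1 neither step from day 4 passed the test (-0.18 to CM, adjusted p = 0.0565, and -0.15 without GF, adjusted p = 0.106).

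Notch3 (chr17:32120820-32166852, minus strand), a receptor of vascular smooth muscle and pericytes, varied least among the receptors, 3.18-fold between the highest and lowest group means. Its mean CPM was 34.6 ± 0.889 (SD, n = 2) in shNT and 25.5 ± 1.55 in shBeclin1 at day 0, and 70.2 ± 1.74 against 60.5 ± 7.68 at day 4. It was 70.9 ± 2.85 against 80.9 ± 3.59 in CM and 71.6 ± 2.83 against 60.5 ± 5.38 without GF. Its hairpin differences were small and sensitive to single libraries. At day 0 it fell by 0.44 (SE 0.09, adjusted p = 0.00122), which was lost without shBeclin1 replicate 2 of day 0 (adjusted p = 0.0513). At day 4 it fell by 0.22 (SE 0.08, adjusted p = 0.0470), which was lost in 11 of 16 fits without 1 library, with an adjusted p of up to 0.619 without shBeclin1 replicate 2 of day 4, and with DESeq2 (0.104). Without GF it fell by 0.24 (SE 0.08, adjusted p = 0.00850), which was lost without shBeclin1 replicate 2 (0.160) or shNT replicate 1 (0.0841) of that culture. In CM the log2 fold was 0.19 (SE 0.08, adjusted p = 0.0504) and passed in 6 of 16 fits without 1 library, with the replicate block (0.0104), with DESeq2 size factors (0.0449) and in a fit of the 4 CM libraries (0.0143). Day 0 to day 4 moved it more, with rises of 1.02 (SE 0.08) in shNT and 1.24 (SE 0.09) in shBeclin1.

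Notch4 (chr17:34564268-34588503, plus strand), the receptor best known from endothelium, was at 12.1 to 14.6 CPM in shNT and 11.7 to 12.2 CPM in shBeclin1 at day 0, with overlapping groups. It fell to day 4 in both hairpins, to 5.02 and 3.57 CPM in shNT (log2 fold -1.64, SE 0.18) and 3.45 and 3.28 CPM in shBeclin1 (-1.82, SE 0.19). In CM it was 15.2 and 12.02 in shNT against 19.9 and 22.3 in shBeclin1, and without GF 2.30 and 2.46 against 3.76 and 5.46. Notch4 was higher in shBeclin1 in both day 10 cultures, by log2 folds of 0.62 in CM (SE 0.14, adjusted p = 0.000489) and 0.96 without GF (SE 0.23, adjusted p = 0.000465, or 1.19 and 0.66 without either shBeclin1 replicate). Like Dll4 it was higher in CM than without GF, 5.74-fold in shNT and 4.54-fold in shBeclin1. In shNT it fell by 0.84 from day 4 to the culture without GF (SE 0.24, adjusted p = 0.00220), which was lost without shNT replicate 1 of day 4 (-0.58, adjusted p = 0.0890). In shBeclin1 it rose by 0.46 (SE 0.21, adjusted p = 0.0490), which was lost in 8 of 16 fits without 1 library, with an adjusted p of up to 0.601 without shBeclin1 replicate 2 without GF, and with DESeq2 (0.0865).

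**Figure D3:**
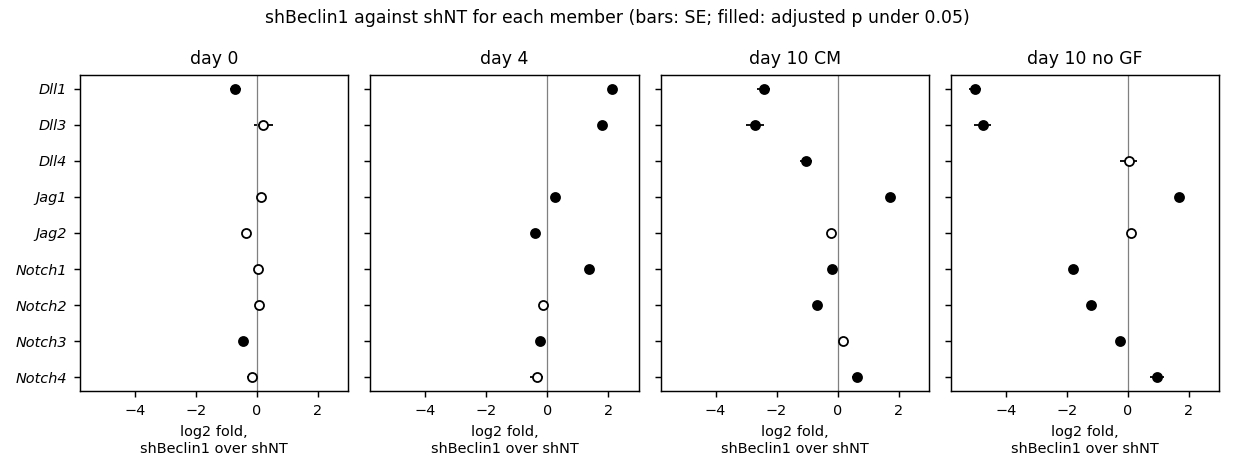
Log2 fold of shBeclin1 over shNT (x axis) for each of the 9 genes (y axis) at the 4 points; bars are the SE and filled points passed the test at an adjusted p under 0.05. Dll4 at day 0 and day 4 is left out because it had 7 counts or fewer per group. Dll1, Dll3 and Notch1 lie right of 0 at day 4 and left of it without GF.

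Per length, the ligands outweighed the receptors most in shBeclin1 at day 4. The RPKM of the 5 ligands summed to 8.25 ± 0.604 (SD, n = 2) in shNT and 7.35 ± 0.281 in shBeclin1 at day 0. At day 4 it was 19.3 ± 0.0781 against 54.4 ± 1.97, in CM 15.5 ± 0.497 against 18.5 ± 0.593, and without GF 19.9 ± 0.893 against 31.5 ± 2.35. Receptor RPKM summed to 10.6 ± 0.387 against 9.47 ± 0.393 at day 0 and 17.9 ± 0.681 against 19.4 ± 1.72 at day 4. It was 24.0 ± 0.240 against 22.4 ± 0.835 in CM and 25.0 ± 2.03 against 14.5 ± 0.915 without GF. The leading ligand changed from group to group. Dll1 made up 47.3% ± 0.279 and Dll3 37.5% ± 1.19 of ligand RPKM in shBeclin1 at day 4, against 30.5% ± 0.673 and 30.1% ± 0.868 in shNT. Jag1 made up 91.6% ± 2.22 in shBeclin1 without GF against 45.2% ± 0.843 in shNT, and 65.7% ± 1.03 in shBeclin1 CM against 23.9% ± 3.52 in shNT CM. In shNT CM, Dll4 had the highest ligand RPKM, 28.1% ± 1.63 of the sum, next to Jag2 with 27.6% ± 3.35, shares that differ by less than their spread. The RPKM ratio of Jag1 to Dll1 was 0.246 and 0.281 in shBeclin1 at day 4 and 286 and 118 in shBeclin1 without GF, against 0.918 to 2.26 in all shNT libraries. In shBeclin1 without GF the ratios rest on 8 and 19 Dll1 counts. Among receptors, Notch3 had the highest mean RPKM in every group except shNT without GF, where Notch2 made up 49.7% ± 1.71 of receptor RPKM. With the longest transcript as the length in place of merged exons, Notch1 led in shBeclin1 at day 0 (3.37 RPKM) and day 4 (8.16 RPKM), and Jag2 replaced Dll4 in shNT CM and Jag1 in shBeclin1 at day 0. In shNT CM the shares of Notch3 and Notch2, 36.5% ± 1.10 and 35.3% ± 1.80, differed by less than their spread. Notch1 made up 28.1% ± 0.382 in shBeclin1 at day 4 against 11.7% ± 0.336 in shNT, and 6.80% ± 0.556 in shBeclin1 without GF against 13.7% ± 0.0859 in shNT.

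**Figure D4:**
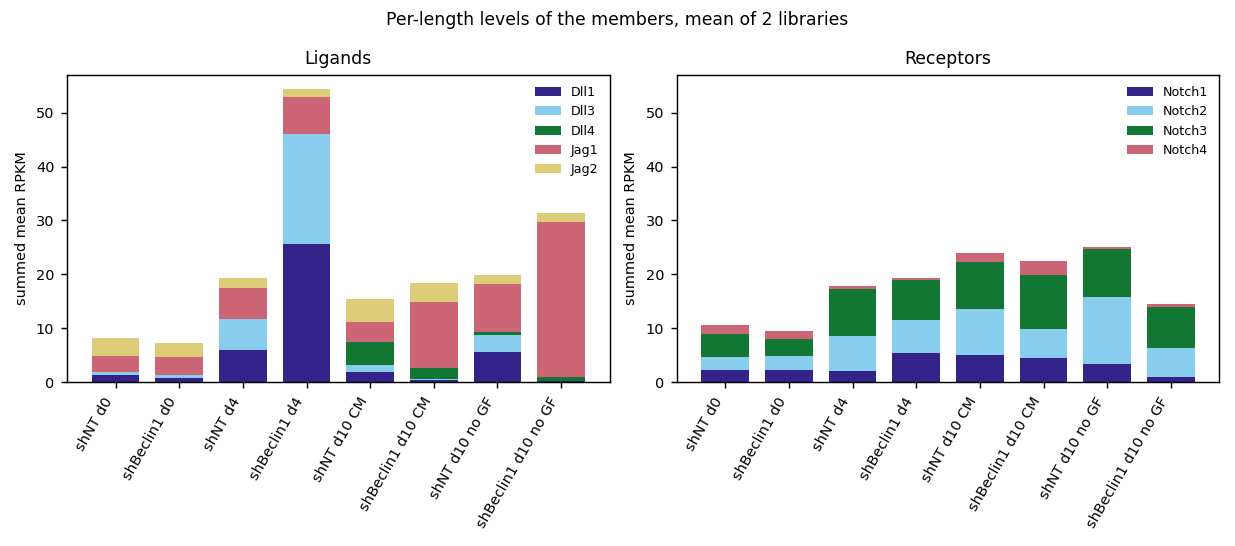
Mean RPKM of 2 libraries, stacked by gene, for the ligands (left) and the receptors (right) in the 8 groups; axes start at 0. The ligand bar is highest in shBeclin1 at day 4, where Dll1 and Dll3 fill most of it, and in shBeclin1 without GF nearly all of it is Jag1.

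Counted over the 9 genes, more passed the hairpin test at day 4 and day 10 than at day 0, as over all genes. At day 0 none rose with edgeR (5.79% of all 19141 genes rose), nor with DESeq2 or at an unadjusted p under 0.05, and 2 fell, Dll1 and Notch3 (7.55% of all genes fell). At day 4, 4 rose (10.7% of all genes) and 2 fell (10.1%), but 3 of these 6 calls, Jag1, Jag2 and Notch3, were lost with DESeq2 and without shBeclin1 replicate 2, shNT replicate 1 or shNT replicate 2 of day 4. In CM, 2 rose, Jag1 and Notch4 (19.2%), and 5 fell, Dll1, Dll3, Dll4, Notch1 and Notch2 (19.1%). Without GF, 2 rose, again Jag1 and Notch4 (27.3%), and 5 fell, Dll1, Dll3, Notch1, Notch2 and Notch3 (27.3%). The median size of the log2 fold over the 9 genes was 0.21 at day 0, 0.38 at day 4, 0.67 in CM and 1.20 without GF, beside 0.21, 0.23, 0.31 and 0.46 over all genes tested. The comparisons over time share libraries with each other and with these.

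From day 0 to day 4, 5 members rose (34.3% of all genes) and 2 fell (32.6%) in shNT, and 6 rose (35.5%) and 2 fell (32.3%) in shBeclin1. The member that rose in shBeclin1 only was Notch1, and its test of the difference is given below. On to CM, 5 rose (36.8%) and 3 fell (33.2%) in shNT, and 5 rose (37.3%) and 3 fell (35.1%) in shBeclin1. On to the culture without GF, 4 rose (35.7%) and 2 fell (33%) in shNT, and 3 rose (38%) and 3 fell (35.8%) in shBeclin1. Against the culture without GF, CM cells had 4 members higher (26.9%) and 4 lower (25.9%) in shNT, and 6 higher (20.3%) and 1 lower (16.7%) in shBeclin1. Dll4, Jag2, Notch1 and Notch4 were higher and Jag1 lower in CM in both hairpins. Dll1 was lower in CM in shNT (log2 fold -1.63, SE 0.12) and higher in CM in shBeclin1 (0.96, SE 0.33, adjusted p = 0.0192). The latter was 1.62 without shBeclin1 replicate 2 without GF, and the call was lost without shBeclin1 replicate 2 of CM (0.75, adjusted p = 0.201) or shBeclin1 replicate 1 without GF (0.55, adjusted p = 0.290).

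Whether the hairpin difference itself changed was tested between points. From day 0 to day 4 it rose for 3 members, Dll1, Dll3 and Notch1 (7.93% of all genes), and fell for none (6.89%, with no member under an unadjusted p of 0.05 in that direction). For Dll1 the change was 2.83 on the log2 scale (SE 0.20, adjusted p = 4.49e-13) and for Notch1 1.34 (SE 0.12, adjusted p = 5.53e-11). From day 4 to CM it rose for 3, Jag1, Notch3 and Notch4 (12.2%), and fell for 4, Dll1, Dll3, Notch1 and Notch2 (13.9%), with -4.55 for Dll1 (SE 0.21) and 1.47 for Jag1 (SE 0.13). Notch3 (0.41, SE 0.11) was lost without shBeclin1 replicate 2 of day 4 (adjusted p = 0.0997), and Notch4 (0.97, SE 0.27) without shNT replicate 1 of day 4 (0.120). For CM minus the culture without GF the test passed above 0 for 5 members, Dll1, Dll3, Notch1, Notch2 and Notch3 (16.2%), and below 0 for Dll4 (18.2%). Notch1 had 1.62 (SE 0.11, adjusted p = 3.46e-14) there. The call of Dll3 (2.06, SE 0.54) was lost without shBeclin1 replicate 1 of CM (adjusted p = 0.0555). That of Dll4 (-1.06, SE 0.34, adjusted p = 0.0139) was lost without shBeclin1 replicate 2 without GF (0.171), shNT replicate 1 of CM (0.0575) or shNT replicate 1 without GF (0.176), and with DESeq2 (0.107), and was -1.72 without shNT replicate 2 without GF. The values that did not pass were 0.05 for Jag1 (SE 0.12, adjusted p = 0.804), -0.34 for Notch4 (SE 0.27, adjusted p = 0.367) and -0.34 for Jag2 (SE 0.18, adjusted p = 0.147).

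Other genes of the pathway were taken from 7 lists of 41 genes, of which 40 were tested (Dlk2 was too low). Of these, 0 rose and 3 fell (Hes1, Neurl1b and Dner) in shBeclin1 at day 0, 7 rose and 5 fell at day 4, 8 rose and 11 fell in CM, and 17 rose and 13 fell without GF. The shares of all genes that rose and fell at these points were 5.79% and 7.55%, 10.7% and 10.1%, 19.2% and 19.1%, and 27.3% and 27.3%. The median log2 fold of the 40 was -0.09, 0.05, -0.03 and 0.11 at these points, beside -0.01, 0.02, -0.02 and -0.01 over all genes.

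Of the 7 target genes, Hes1, Hey1 and Nrarp rose in shBeclin1 at day 4 (10.7% of all genes rose), where Dll1, Dll3 and Notch1 were higher. A link between these targets and the ligand or receptor levels was not tested. Hes1, a repressor induced by Notch in many tissues, was at 90.6 ± 1.36 CPM (SD, n = 2) against 52.8 ± 2.52 in shNT (log2 fold 0.78, adjusted p = 1.83e-07). Hey1, a repressor of heart and vessels, was at 13.7 against 6.02 CPM (1.17, adjusted p = 1.07e-05), and Nrarp, a feedback inhibitor, at 5.38 against 2.98 CPM (0.84). In CM, Hey2, a repressor of ventricular myocardium, rose from 4.50 to 37.1 CPM (3.05, adjusted p = 1.21e-19), while Heyl (-2.13), Hey1 (-1.10) and Hes5 fell, the last from 0.429 CPM to 0 counts, at least 4.67-fold. Without GF, Hey2 (2.57), Hey1 (1.04) and Heyl (0.55) rose and Hes5, Hes1 (-0.65) and Nrarp (-1.08) fell. Hes5, the Notch target of neural progenitors, was at 4.49 CPM in shNT without GF and had no count in either shBeclin1 library, at least 55.9-fold lower (3 counts summed over both libraries taken as the floor). The 7 targets thus did not all move one way at day 10. Nrarp shares 79.4% of its exon length with Gm38287 and Hes5 31.8% with Gm20421, both on the opposite strand. The cardiomyocyte sum was higher in shBeclin1 in both cultures, while the endothelial and neural sums differed several-fold without GF and far less in CM, and their part in the target values was not tested.

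Among modifiers, Lfng, the fringe glycosyltransferase that changes which ligands a receptor answers to and that cycles with Dll1 in presomitic mesoderm, changed in the same directions as Dll1 at day 4 and day 10. At day 0, where Dll1 fell, Lfng was at 2.97 CPM in shBeclin1 against 1.93 in shNT and did not pass (0.62, adjusted p = 0.117). It was at 21.8 CPM in shBeclin1 against 4.39 in shNT at day 4 (log2 fold 2.31, adjusted p = 4.52e-13), and 1.34 against 4.28 in CM (-1.68) and 1.97 against 17.2 without GF (-3.11). Mfng fell without GF (-1.74) and rose in CM (0.39, adjusted p = 0.0184). Of the 4 ligand ubiquitin ligases, which ligands need for activity, Neurl1b fell at day 0 (-0.82) and rose in both day 10 cultures (1.78 and 2.27) and Mib1, the broadly used one, passed at no point. Of the 8 regulators of the receptor, Dtx4 and Dtx1, members of the Deltex family, fell at day 4 (-1.41 and -1.20), in CM (-2.33 and -4.10) and without GF (-3.16 and -2.93). In all, 4 of the 8 fell at day 4, 1 rose and 3 fell in CM, and 5 rose without GF, among them Numb (0.33), Dtx2 (0.40) and Dtx3 (0.17), while 3 fell. In the nuclear complex no gene passed before the culture without GF, where Maml3 (-0.55) and Rbpj (-0.27) fell and Maml1 (0.22) rose. Of the 9 cleavage genes, Adam10, the protease of the first ligand-induced cut, rose at day 4 (0.55), fell in CM (-0.34) and rose without GF (0.45). Dlk1, a Delta-like protein without the domain that activates receptors, rose in shBeclin1 at day 4 (1.39), in CM (4.01, from 36.0 to 579 CPM) and without GF (2.22, from 68.6 to 320 CPM).

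**Figure D5:**
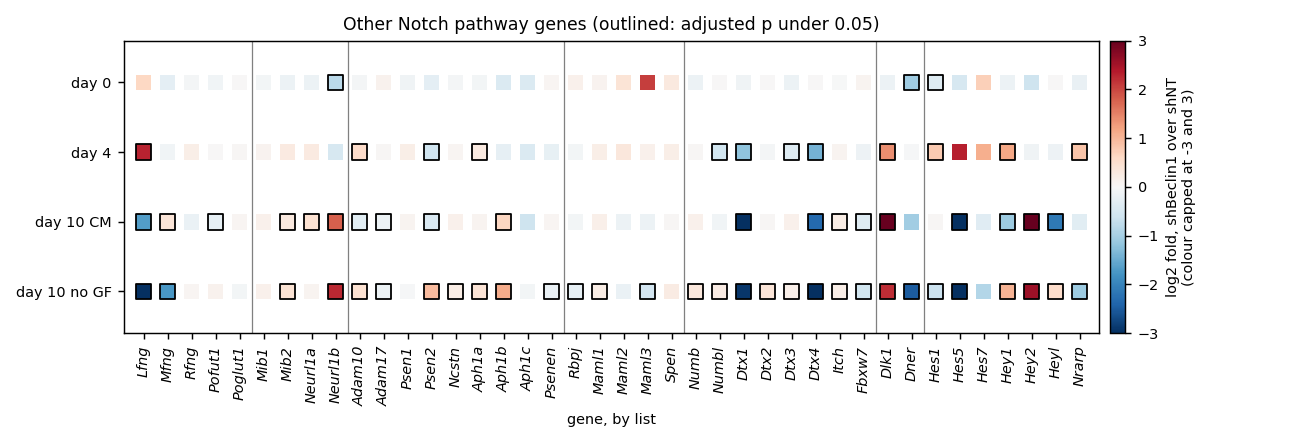
Log2 fold of shBeclin1 over shNT (colour, capped at -3 and 3) for 40 other Notch pathway genes (x axis, lists divided by lines) at the 4 points (y axis); outlined squares passed the test at an adjusted p under 0.05. Lfng is red at day 4 and blue at day 10, Dtx1 and Dtx4 are blue from day 4 on, and Dlk1 and Hey2 are red at day 10. The colour of Hes5 at day 10, where shBeclin1 had 0 counts, depends on the prior count.

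The 3 genes of closest pattern were named for each member from log2 CPM over the 16 libraries. Candidates were the 10792 tested genes that met the minimum mean log2 CPM and had no predicted-gene name. For Dll1 the closest candidates were Sall3, Ralgps2 and Ap3s1 (Pearson r 0.959 to 0.953). Dll3 was not among the candidates, although its r with Dll1 was higher (0.979). For Dll3 they were Dll1, Dpysl5 and Rcor2 (0.979 to 0.967). For Dll4 they were Itm2b, Cd34 and Ppp1r9b (0.981 to 0.979), for Jag1 St7, Bex3 and Ociad2 (0.945 to 0.934), and for Jag2 Tspan15, Slc31a2 and Hexa (0.950 to 0.941). Notch1 was closest to Ptprj, Rai14 and Dcxr (0.904 to 0.840), a looser match than that of any other member. Notch2 was closest to Thbs3, Tuba1a and Prom1 (0.985 to 0.974), Notch3 to Sort1, Cnppd1 and Prox1 (0.975 to 0.968), and Notch4 to Dock6, Rnf31 and Abtb1 (0.966 to 0.937). Within the family the next closest pairs after Dll1 and Dll3 were Notch4 and Jag2 (0.930) and Notch2 and Notch3 (0.837). The lowest was Notch4 with Dll3 (-0.584).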

How the data were processed

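RNA-seq libraries of ES-E14TG2a cells were deposited by the authors as a single table of raw counts by gene symbol, 1 column for each library. Trimmomatic 0.36, featureCounts, Subread 1.5.1, SAMtools and the build mm10 are named, with no order, per the submitters' processing notes. The aligner, annotation, strand setting and treatment of multi-mapped reads are not stated there. The molecule tag names polyA RNA while the labels' protocol describes removal of ribosomal RNA.

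From the counts, 54052 entries were filtered with filterByExpr to 19141, which removed 34911 (18471 at 0 in every library). edgeR 4.0.16 (R 4.3.3, limma 3.58.1) with TMM factors of 0.884 to 1.08 fitted 1 mean per group over the 16 libraries, robust quasi-likelihood, 8 residual degrees of freedom and a common biological coefficient of variation of 5.38%. Benjamini-Hochberg adjustment ran over all genes tested in each of 15 comparisons, and the SE is the log2 fold divided by the root of F. 77 symbols recur over 959 entries, none of them a member. RPKM used merged exons of GENCODE vM21. For Dll4, exact intervals of the count ratio cover counting error only. The script was tested on simulated data. DESeq2 1.42.0, other scalings and filters, a replicate block and leaving out libraries were alternatives.

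The members, the pathway and marker lists and the tests were chosen with earlier results of these data known. All members are named. Of each pathway list, at most the 3 called genes of smallest adjusted p in a comparison are named, or those in a count of 5 or fewer. Genes of like pattern are the 3 of highest Pearson r of log2 CPM among tested genes with a mean of at least 2 and no predicted-gene name.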

Additional observations from a re-analysis of the deposited data

Results flagged for a closer look

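For 16 values the hairpin difference of a member changed between points by edgeR's test of the difference itself, each on the log2 scale and adjusted over all genes. From day 0 to day 4 it changed by 1.34 for Notch1, 2.83 for Dll1 and 1.59 for Dll3. From day 4 to CM it changed by -1.56 for Notch1, -0.54 for Notch2, 0.41 for Notch3, 0.97 for Notch4, -4.55 for Dll1, -4.50 for Dll3 and 1.47 for Jag1. CM minus the culture without GF gave 1.62 for Notch1, 0.53 for Notch2, 0.43 for Notch3, 2.59 for Dll1 (2.18 and 3.25 without shBeclin1 replicate 1 or 2 of the culture without GF), 2.06 for Dll3 and -1.06 for Dll4. Over all genes the shares called higher in these sets, in the order given, were 7.93%, 12.2% and 16.2%. The shares called lower were 6.89%, 13.9% and 18.2%. Calls of Notch3 and Notch4 from day 4 to CM, and of Dll3 and Dll4 in the last set, were lost in fits without 1 library. That of Dll4 was also lost with DESeq2. The last 2 sets share the CM libraries, and the first 2 share the day 4 libraries. Groups of 2 libraries are too small for a check of single libraries that stand apart.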

How the results depend on the processing

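Of 96 member folds past the threshold, 81 kept their direction and call under every alternative run (up to 23 each), and none of the 96 reversed. The number of members called at day 0 was 2, 1 in a fit of the 4 libraries and 1 to 3 when 1 library was left out. At day 4 it was 6, 3 with DESeq2 and 3 to 6 when 1 library was left out. Of the hairpin folds that did not pass the test, 4 at day 0 (Dll3, Dll4, Notch1 and Notch2) and those of Dll4 and Jag2 without GF changed sign under an alternative. Leaving out 1 library gave -0.27 to 0.58 for Dll3 and -1.26 to 0.042 for Dll4 at day 0, and -0.40 to 0.65 for Dll4 and -0.018 to 0.24 for Jag2 without GF. Scaling to total counts gave -0.019 for Notch1 and -0.00055 for Notch2 at day 0. The cause was not tested. With the longest transcript as gene length, 34 of the 72 levels per length moved by more than their SD, and the order of receptors changed as given above.

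Deviations of same-numbered libraries of both hairpins correlated at r = 0.0219, -0.00442, -0.0215 and -0.00367 at the 4 points. These values gave no sign of pairing by number. They cannot settle it, as deviations over all genes tested also hold counting error. The replicate block gave 2 members called at day 0, 5 at day 4 and 7 in each day 10 culture, against 2, 6, 7 and 7. It ended the calls of Jag2 at day 4 (adjusted p = 0.0503) and Notch1 in CM (0.0752) and added Notch3 in CM (0.0104).

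Over all genes, calls at day 0 numbered 2555, 1693 with DESeq2, 1241 in the 4 libraries, and 1160 and 920 without shBeclin1 replicate 1 or 2. At day 4 they numbered 3975, 2611 and 2644 without shBeclin1 replicate 1 or 2, and 2516 and 2514 without shNT replicate 1 or 2. Scaling to total counts shifted the median of all genes by 0.002 to 0.246 on the log2 scale. It moved the share of higher calls from 43.4% to 23.9% at day 0, 51.5% to 38.1% at day 4, 50.1% to 36.7% in CM, 54.9% to 42.2% for CM against the culture without GF in shBeclin1, and 52.0% to 62.4% from day 4 to that culture in shNT. Without a filter the day 0 share was 53.7%. Depth limits Dll4 before day 10, at 7 counts or fewer per group, and Dll1 and Dll3 in shBeclin1 at day 10.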
